A study of Homo sapiens with 18 samples.

Results

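The 30 genes described here encode enzymes that make nucleotides, from the pentose phosphate pathway through ribose activation to purine and pyrimidine synthesis and salvage. They were taken by symbol from a fixed list, not by a threshold on measured values. The list was chosen with earlier results of these data known. All 30 were found among the 60623 genes of the table. All 30 also passed the filter on low counts, as did 16414 genes in all. RNA was sequenced from HEK-293E cells, a cultured line derived from human embryonic kidney, in 6 groups of 3 libraries. Untreated cells were starved overnight in DMEM with little serum, or starved and then returned to regular growth medium (high-glucose DMEM with L-glutamine, serum and antibiotics) for 1 h or 4 h. The other 3 groups had the same feeding states and Torin1, which inhibits the kinase mTOR. All 6 groups therefore share the overnight starvation. Neither the dose of Torin1 nor its duration is given in the sources used here. Nothing in the labels says that the libraries of a group are separate cultures; the p-values below thus rest on a spread that may be technical.

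The pentose phosphate pathway oxidises phosphorylated glucose to make NADPH and ribose phosphate, and its non-oxidative enzymes exchange sugars with glycolysis. PRPP synthetase activates ribose phosphate to phosphoribosyl pyrophosphate (PRPP), the sugar onto which purines are built step by step and to which the finished pyrimidine ring is joined. Proliferating cells in culture use both routes heavily, and mTOR is known to act on them through enzyme phosphorylation and through transcription. Salvage enzymes return free bases and nucleosides to the same pools.

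Levels are given as counts scaled to a common library total (CPM) after TMM adjustment. Library totals ranged from 10510689 to 13690035 counts, and counts of a member in a library ranged from 127 for CTPS2 to 13464 for PAICS. Per length, on the TPM scale, starved cells held most of PAICS (775.5 TPM), IMPDH2 (572.9 TPM) and TKT (522.7 TPM) and least of DHODH (14.7 TPM) and CTPS2 (6.90 TPM). The neuronal filament and LIN28B list reported for HEK293 lines summed to 274 to 512 CPM, with 274 to 366 CPM in the libraries with Torin1 and 418 to 512 CPM in those without. Within it NEFM and LIN28B had lower means with Torin1 in each feeding state, whereas NEFL did not (38.0 CPM starved and 47.9 CPM with Torin1). Summed keratins stood at 58.1 to 86.5 CPM without and 88.2 to 127 CPM with Torin1, podocyte markers at 28.3 to 42.5 CPM and 47.9 to 60.7 CPM, and proximal tubule markers in starved cells at 10.4 to 13.1 CPM and 28.1 to 39.9 CPM. The loop of Henle markers summed to at most 0.285 CPM in any library, so this segment's markers were at or near 0. COL1A2, a fibroblast collagen gene, stood at 4.75 to 6.90 CPM in 3 libraries (starved replicate 1, 1 h fed replicate 2 and 4 h fed with Torin1 replicate 2) and at no more than 0.684 CPM in the other 15. The part of these and the marker transcripts in the results was not tested, and counts without the 3 libraries are given beside the main ones. Mitochondrial genes held 2.23% of counts (SD 0.356, n = 3) in starved cells and 3.37% (SD 0.56, n = 3) in cells fed for 4 h.

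None of the 30 genes was called changed after 1 h of feeding, 13 rose and 3 fell after 4 h, and none was called after 4 h of feeding with Torin1. A gene was called changed when its adjusted p in edgeR's quasi-likelihood test, Benjamini-Hochberg adjusted over all genes tested, was under 0.05. After 1 h no member was called (background over all genes tested 0.481% higher and 0.164% lower). In that comparison 1 member had an unadjusted p under 0.05, the smallest adjusted p was 0.484, and DESeq2 and limma-voom called 0 as well. The 13 members called higher after 4 h compare with 23.2% of all genes called higher, and the 3 called lower with 19.1%. The median log2 fold change of the 30 members was 0.15, against -0.0032 over all genes. Measured from 1 h to 4 h of feeding, 12 members were called higher (background 21.7%) and 3 lower (18.1%). Without the 3 libraries with COL1A2 over 1 CPM the counts after 4 h were 12 and 3 against starvation, and 14 and 2 against 1 h of feeding. Against starvation PGD was the gene lost (0.21, adjusted p = 0.0742). In bulk RNA, fewer cells of a type and less RNA per cell cannot be told apart.

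Torin1 was followed by calls in both directions, in starved cells at a share of the members close to that of all genes. In starved cells 8 members were called higher (background 33.9%) and 12 lower (29.6%). In cells fed for 1 h the counts were 13 higher (33.2%) and 10 lower (29.9%), and in cells fed for 4 h they were 6 higher (27.4%) and 18 lower (28.6%). The member medians were 0.01, 0.02 and -0.37 in these comparisons, beside 0.0916, 0.062 and 0.0239 over all genes. Under total-count scaling the all-gene medians were 0.2285, 0.1733 and 0.1867, and the counts then stood at 14 higher and 10 lower, 13 and 8, and 8 and 15. No called member changed sign under that scaling. Without the 3 libraries with COL1A2 over 1 CPM the counts were 9 and 12, 13 and 8, and 6 and 17. Torin1 was called higher in all 3 feeding states for 5 members (PGLS, PGD, PRPSAP1, IMPDH2 and CTPS2; background 18.8%) and lower in all 3 for 10 (RPIA, RPE, PRPS1, PPAT, GART, PAICS, ADSL, ADSS2, UMPS and HPRT1; 19.6%). DHODH was called in no comparison with TMM scaling, but under total-count scaling it was called higher with Torin1 in starved cells (0.39, adjusted p = 0.0229).

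**Figure D1:**
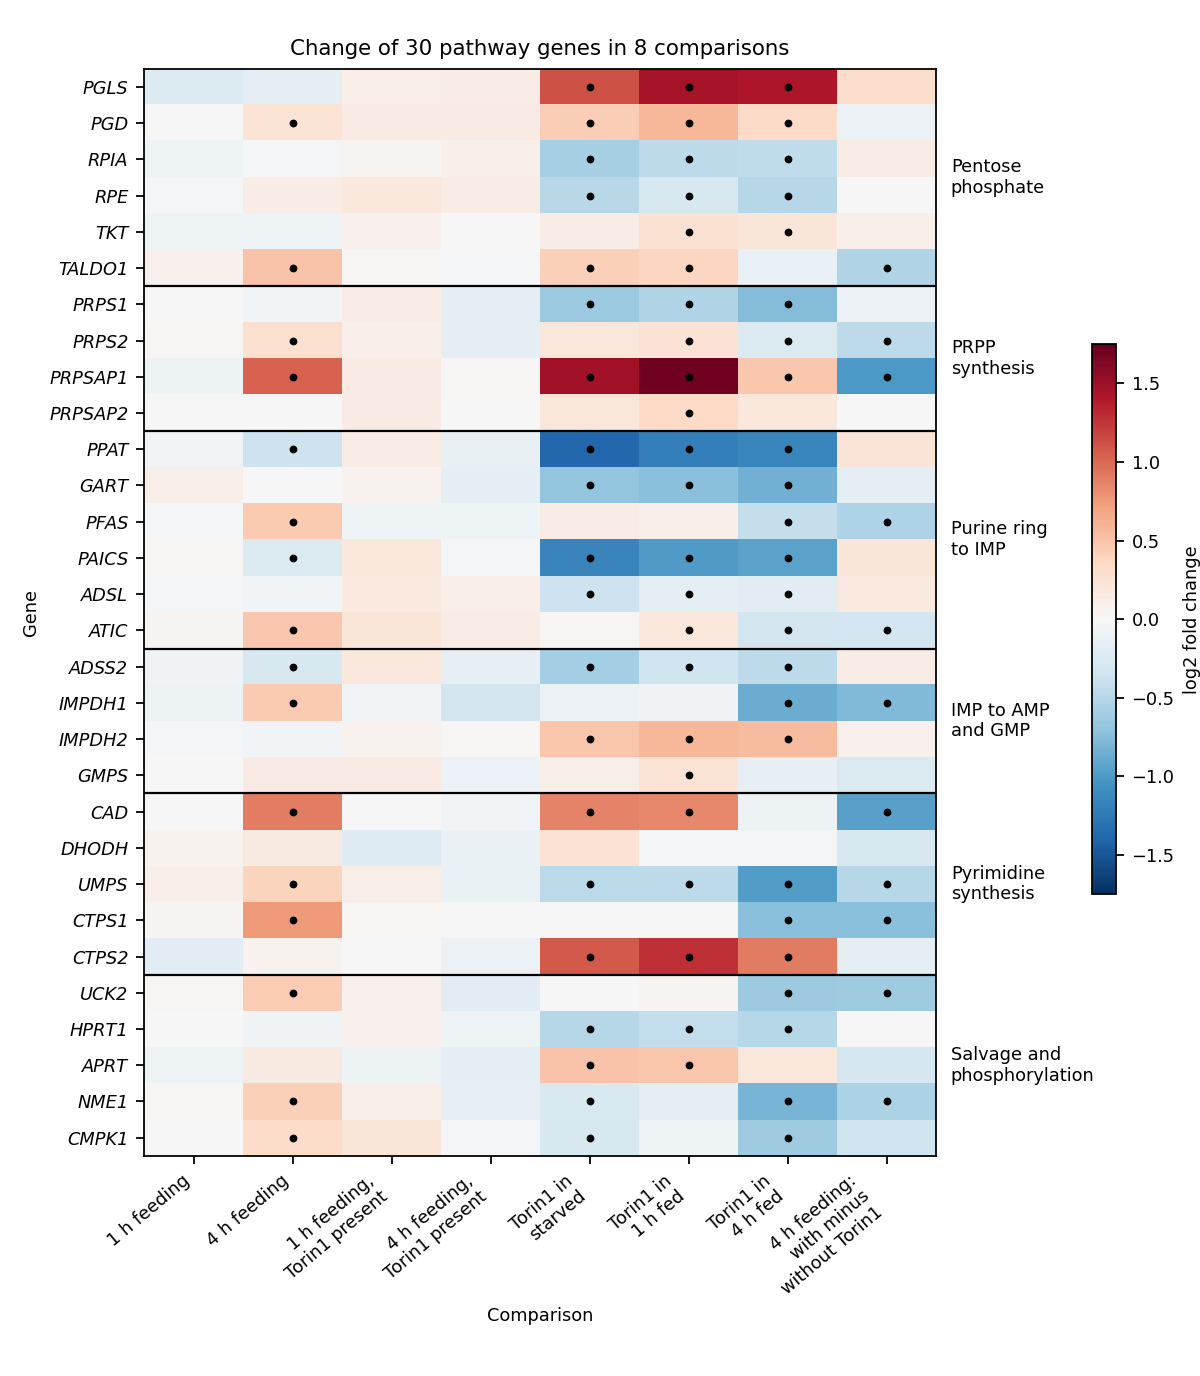
Log2 fold change of each of the 30 genes (rows, grouped by role) in 8 comparisons (columns); red is higher, blue lower, and a dot marks an adjusted p under 0.05. The 1 h feeding columns and the 4 h feeding column with Torin1 hold no dots, while PRPSAP1, PGLS and CTPS2 stand out as higher with Torin1 and PPAT and PAICS as lower.

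Among the 6 pentose phosphate genes, PGD and TALDO1 rose after 4 h of feeding (23.2% of all genes) and the other 4 were not called. With Torin1 the oxidative enzymes PGLS and PGD were higher in every feeding state (18.8% of all genes). The ribose phosphate isomerase RPIA and epimerase RPE were lower in every state (19.6%). PGLS, the lactonase of the oxidative branch, stood at 45.00, 44.7 and 43.2 CPM in the starved libraries, 41.6, 38.6 and 32.6 CPM after 1 h and 41.7, 36.3 and 39.8 CPM after 4 h. With Torin1 its starved libraries held 106, 84.9 and 95.5 CPM and the fed ones 98.3, 111 and 100.2 CPM at 1 h and 104, 102 and 109 CPM at 4 h. The lowest library with Torin1 lay above the highest without. The Torin1 difference was 2.16-fold in starved cells (log2 fold change 1.11, SE 0.10, adjusted p = 3.01e-11) and 2.67-fold in cells fed for 4 h (log2 fold change 1.42, SE 0.10, adjusted p = 5.43e-13). PGD, which makes ribulose phosphate with NADPH, measured 185, 199 and 191 CPM starved, 169, 199.6 and 206 CPM at 1 h and 232, 221 and 228 CPM at 4 h. Its libraries with Torin1 ran 256, 242 and 281 CPM starved, 268, 299.8 and 293 CPM at 1 h and 284, 272 and 301 CPM at 4 h, all above the untreated ones. The PGD rise with feeding was 1.18-fold (log2 fold change 0.24, SE 0.08, adjusted p = 0.0138) and was not called without starved replicate 1 (0.21, adjusted p = 0.0637). RPIA ranged from 41.2 to 56.9 CPM without Torin1 and from 32.4 to 40.4 CPM with it, and the 9 libraries with it lay below the 9 without. The same held for RPE, at 58.97 to 73.03 CPM without and 41.2 to 57.2 CPM with Torin1. The RPE call at 1 h was lost under total-count scaling (-0.16, adjusted p = 0.152) and without 1 h fed Torin1 replicate 2 (-0.22, adjusted p = 0.102) or 3 (-0.23, adjusted p = 0.0882).

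TKT and TALDO1, the transketolase and transaldolase that link the pathway to glycolysis, differed in their calls. TKT measured 558, 550.2 and 527 CPM starved, 518, 529.7 and 512 CPM at 1 h and 526, 499 and 524 CPM at 4 h. With Torin1 it measured 614, 538 and 635 CPM starved, 624, 629.6 and 631 CPM at 1 h and 580.3, 583 and 630.2 CPM at 4 h. TKT was not called with feeding (-0.08, adjusted p = 0.378), and its Torin1 difference was called at 0.27 after 1 h and 0.21 after 4 h, the latter not without 4 h fed Torin1 replicate 3 (0.17, adjusted p = 0.0657). In starved cells the TKT difference was 0.13, adjusted p = 0.108, and it was called without starved Torin1 replicate 2 (0.20, adjusted p = 0.019) and under total-count scaling (0.26, adjusted p = 0.000988). TALDO1 ranged from 108 to 110.1 CPM in starved cells and from 146 to 164 CPM at 4 h, a rise of 1.41-fold (log2 fold change 0.50, SE 0.08, adjusted p = 4.46e-06). In starved cells with Torin1 it already ranged from 138 to 154 CPM (log2 fold change 0.42, SE 0.08, adjusted p = 2.36e-05), and at 4 h the Torin1 difference was -0.11 (adjusted p = 0.215).

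Of the 4 genes of PRPP synthesis, PRPSAP1 showed the largest rise of all 30 after 4 h of feeding and PRPS2 a small one. PRPS1 fell with Torin1 in every feeding state. Over all genes 23.2% were called higher after 4 h, and 19.6% lower with Torin1 in every state. PRPSAP1 and PRPSAP2 encode proteins that associate with PRPP synthetase. PRPSAP1 (ENSG00000161542) held 28.5, 23.9 and 19.2 CPM in starved cells, 27.4, 20.5 and 19.2 CPM after 1 h and 49.5, 45.4 and 51.1 CPM after 4 h. Its libraries with Torin1 held 61.8, 65.2 and 71.5 CPM starved, 69.6, 67.1 and 81.9 CPM at 1 h and 64.9, 64.9 and 71.98 CPM at 4 h. The 4 h libraries lay above all starved and 1 h ones, and the libraries with Torin1 lay above all others. The rise with feeding was 2.04-fold (log2 fold change 1.03, SE 0.13, adjusted p = 1.04e-07), and Torin1 raised the gene 2.77-fold in starved cells (log2 fold change 1.47, SE 0.13, adjusted p = 2.05e-11) and 1.38-fold at 4 h (log2 fold change 0.47, SE 0.12, adjusted p = 0.00143). PRPSAP2 was not called with feeding and was higher with Torin1 at 1 h (0.35, adjusted p = 0.0022). Under total-count scaling PRPSAP2 was also called higher with Torin1 in starved cells (0.33, adjusted p = 0.00326) and at 4 h (0.35, adjusted p = 0.00233). The 250 bases before the PRPSAP1 start in RefSeq (GRCh38.p14, chr17:76354199-76354448, minus strand) are shown because this member had the largest rise with feeding; capitals mark a match to the NRF1 motif (GCGC, any base, TGCGC), searched on both strands, which is in 10.0% of the 40 windows of members and in 5.78% of the 35116 windows of all genes.
PRPSAP1: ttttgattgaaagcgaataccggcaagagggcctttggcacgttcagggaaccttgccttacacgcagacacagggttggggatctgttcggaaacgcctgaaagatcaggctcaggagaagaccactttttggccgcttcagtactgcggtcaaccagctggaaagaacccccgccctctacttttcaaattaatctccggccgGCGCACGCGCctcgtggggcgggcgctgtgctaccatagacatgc

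PRPS1 and PRPS2 are the catalytic isoforms of PRPP synthetase expressed in most tissues. PRPS1 measured 288, 291 and 319 CPM starved, 295, 321 and 287 CPM at 1 h and 303, 275 and 289.8 CPM at 4 h. With Torin1 it measured 205, 182 and 186 CPM starved, 223, 203 and 199 CPM at 1 h and 182, 165 and 167 CPM at 4 h. Every library with Torin1 lay below every library without, and the difference was called in starved cells (log2 fold change -0.65, SE 0.08, adjusted p = 1.15e-08) and after 4 h (log2 fold change -0.76, SE 0.08, adjusted p = 1.1e-09). PRPS2 held 51.8, 41.8 and 44.9 CPM starved, 48.1, 51.5 and 41.2 CPM at 1 h and 58.1, 55.8 and 53.7 CPM at 4 h. Its libraries with Torin1 held 59.4, 48.9 and 49.6 CPM starved, 58.7, 52.8 and 56.8 CPM at 1 h and 47.8, 49.2 and 43.01 CPM at 4 h. PRPS2 was called higher with feeding (log2 fold change 0.28, SE 0.11, adjusted p = 0.0342), higher with Torin1 at 1 h (0.26) and lower with Torin1 at 4 h (-0.26); whether those opposite Torin1 values differ from each other was not tested. These PRPS2 calls were near the threshold: leaving out single libraries gave adjusted p-values up to 0.183 for feeding (without starved replicate 2; also lost without starved replicate 3 and 4 h fed replicates 1 and 2), 0.202 for Torin1 at 1 h (without 1 h fed replicate 3; also without 1 h fed Torin1 replicates 1 and 3) and 0.144 for Torin1 at 4 h (without 4 h fed Torin1 replicate 3; also without 4 h fed replicates 1 and 2). Under total-count scaling the PRPS2 adjusted p was 0.0533 for feeding and 0.451 for Torin1 at 4 h. The feeding call was also lost with DESeq2 size factors (adjusted p = 0.0741) and under the DESeq2 Wald test (0.0821). For Torin1 at 1 h these gave 0.0759 and 0.0946. With only the groups compared, the values were 0.0614 for feeding, 0.0633 for Torin1 at 1 h and 0.0653 at 4 h. With no filter on low counts they were 0.0681 for feeding and 0.0831 for Torin1 at 4 h.

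All 6 genes that build the purine ring up to IMP were called lower with Torin1 after 4 h of feeding (28.6% of all genes). Under total-count scaling the calls of ADSL and PFAS were lost. PPAT, GART, PAICS and ADSL were called lower with Torin1 in all 3 feeding states (19.6% of all genes). PFAS and ATIC were called higher after 4 h of feeding (23.2%), and PPAT and PAICS were called lower (19.1%). PPAT (ENSG00000128059), the amidotransferase that commits PRPP to purines, stood at 205, 211 and 205 CPM starved, 193, 192 and 217 CPM at 1 h and 159, 181 and 146 CPM at 4 h. Its Torin1 libraries held 78.5, 86.7 and 74.9 CPM starved, 87.5, 84.7 and 90.2 CPM at 1 h and 79.2, 74.1 and 66.6 CPM at 4 h. Its 9 libraries with Torin1 lay below the 9 without, at 0.387 of the untreated level in starved cells (log2 fold change -1.37, SE 0.09, adjusted p = 3.05e-14) and 0.453 at 4 h (log2 fold change -1.14, SE 0.09, adjusted p = 4.09e-12). The fall with feeding was smaller (log2 fold change -0.36, SE 0.09, adjusted p = 0.00107), and the 3 libraries at 4 h lay below the starved ones. PAICS (ENSG00000128050), which carries out a carboxylation and a ligation in the middle of the route, measured 1104, 1117 and 1039.6 CPM starved, 1086, 1033 and 1203 CPM at 1 h and 885, 1015 and 827 CPM at 4 h. Its Torin1 libraries measured 528, 478 and 460.3 CPM starved, 587, 534 and 556 CPM at 1 h and 512, 485 and 429 CPM at 4 h, again below all others. The Torin1 difference of PAICS was -1.15 in starved cells (SE 0.08, adjusted p = 4.38e-13) and -0.93 at 4 h (SE 0.08, adjusted p = 7.71e-11). Its fall with feeding (-0.26, adjusted p = 0.0115) was not called without 4 h fed replicate 3 (-0.19, adjusted p = 0.0856).

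PPAT and PAICS are neighbours on chromosome 4 and are transcribed away from each other. In RefSeq (GRCh38.p14) the PPAT start is at 56435615 on the minus strand and the PAICS start at 56435752 on the plus strand. The 136 bases between the starts (chr4:56435616-56435751, plus strand) are shown because the genes next to them moved together, as is the E-box CACGTG (capitals), which lies at 40 bases past the PAICS start and so 182 bases before that of PPAT (chr4:56435782-56435801, plus strand).
PPAT and PAICS: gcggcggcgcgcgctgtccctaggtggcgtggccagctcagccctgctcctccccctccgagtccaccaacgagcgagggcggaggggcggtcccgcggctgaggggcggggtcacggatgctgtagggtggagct
E-box beside PAICS: gtatttgctgCACGTGgaaa
The stretch between the starts holds none of the motifs searched. The PPAT to PAICS ratio of counts, as log2, ran from -2.43 to -2.34 in starved libraries and from -2.71 to -2.69 at 4 h with Torin1. Over all members, the E-box, searched on both strands, is in 5 of 40 windows of 300 bases, or 12.5%, belonging to ATIC, PPAT, PAICS, DHODH and NME1, against 7.26% of all windows; the PPAT and PAICS windows share 1 copy. The amino acid response element core TGATGNAA is in none of the 40 windows and in 3.62% of all, CCAAT (either strand) in 37.5% and 34.61%, and the E2F motif in 5.0% and 3.31%. Windows were found for 28 of the 30 members, several with more than 1, and not for IMPDH2 and ADSL.

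GART, which catalyses several steps of the same route, stood at 315, 332 and 329 CPM starved, 330.1, 362 and 359.7 CPM at 1 h and 324, 343 and 311 CPM at 4 h. Its Torin1 libraries stood at 201, 202 and 203 CPM starved, 215, 217 and 202 CPM at 1 h and 189.9, 175 and 181 CPM at 4 h. No library with Torin1 reached the lowest without, with differences of -0.69 in starved cells (SE 0.07, adjusted p = 5.43e-10) and -0.84 at 4 h (SE 0.07, adjusted p = 1.8e-11). GART overlaps SON on the opposite strand over 3.5% of its exon bases, and strand use in counting is not given. ADSL, the lyase that acts both here and in AMP synthesis, fell with Torin1 in starved cells (-0.36, adjusted p = 5.17e-05) and more narrowly in fed ones (-0.17 and -0.19). The fed-state ADSL calls were lost without any of 4 libraries at 1 h (adjusted p 0.0775 to 0.182, untreated and Torin1 replicates 1 and 2) or either of 2 at 4 h (0.149 without 4 h fed replicate 2 and 0.0646 without 4 h fed Torin1 replicate 2), and under total-count scaling (0.504 at 1 h and 0.75 at 4 h). With no filter on low counts both fed-state ADSL calls were lost as well (adjusted p = 0.169 at 1 h and 0.142 at 4 h). With only the groups compared the 4 h call was lost (0.0874). ADSL shares 18.9% of its exon bases with AL022238.4 on the same strand.

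ATIC, which closes the purine ring, ranged from 177 to 184 CPM in starved cells and from 239 to 259 CPM at 4 h, with no overlap (log2 fold change 0.47, SE 0.07, adjusted p = 1.78e-06). At 4 h with Torin1 it ranged from 189 to 206 CPM, below the untreated libraries (log2 fold change -0.32, SE 0.07, adjusted p = 0.000194). At 1 h it was called higher with Torin1 (0.18, adjusted p = 0.0244), a call lost without 1 h fed replicate 1 (0.13, adjusted p = 0.12) and without 1 h fed Torin1 replicate 2 or 3 (adjusted p 0.0626 and 0.0596). That call was also lost with DESeq2 size factors (adjusted p = 0.0977), with no filter on low counts (0.0817) and with only the groups compared (0.0791). PFAS ranged from 79.3 to 104 CPM in starved cells and from 115 to 157 CPM at 4 h (log2 fold change 0.46, SE 0.13, adjusted p = 0.00706). At 4 h PFAS was lower with Torin1 (-0.41, adjusted p = 0.0107). Without 4 h fed replicate 3 the PFAS values fell short of the threshold both for feeding (0.31, adjusted p = 0.0574) and for Torin1 at 4 h (-0.26, adjusted p = 0.0813; 0.0503 without 4 h fed Torin1 replicate 1); the latter was also lost under total-count scaling (adjusted p = 0.118).

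**Figure D2:**
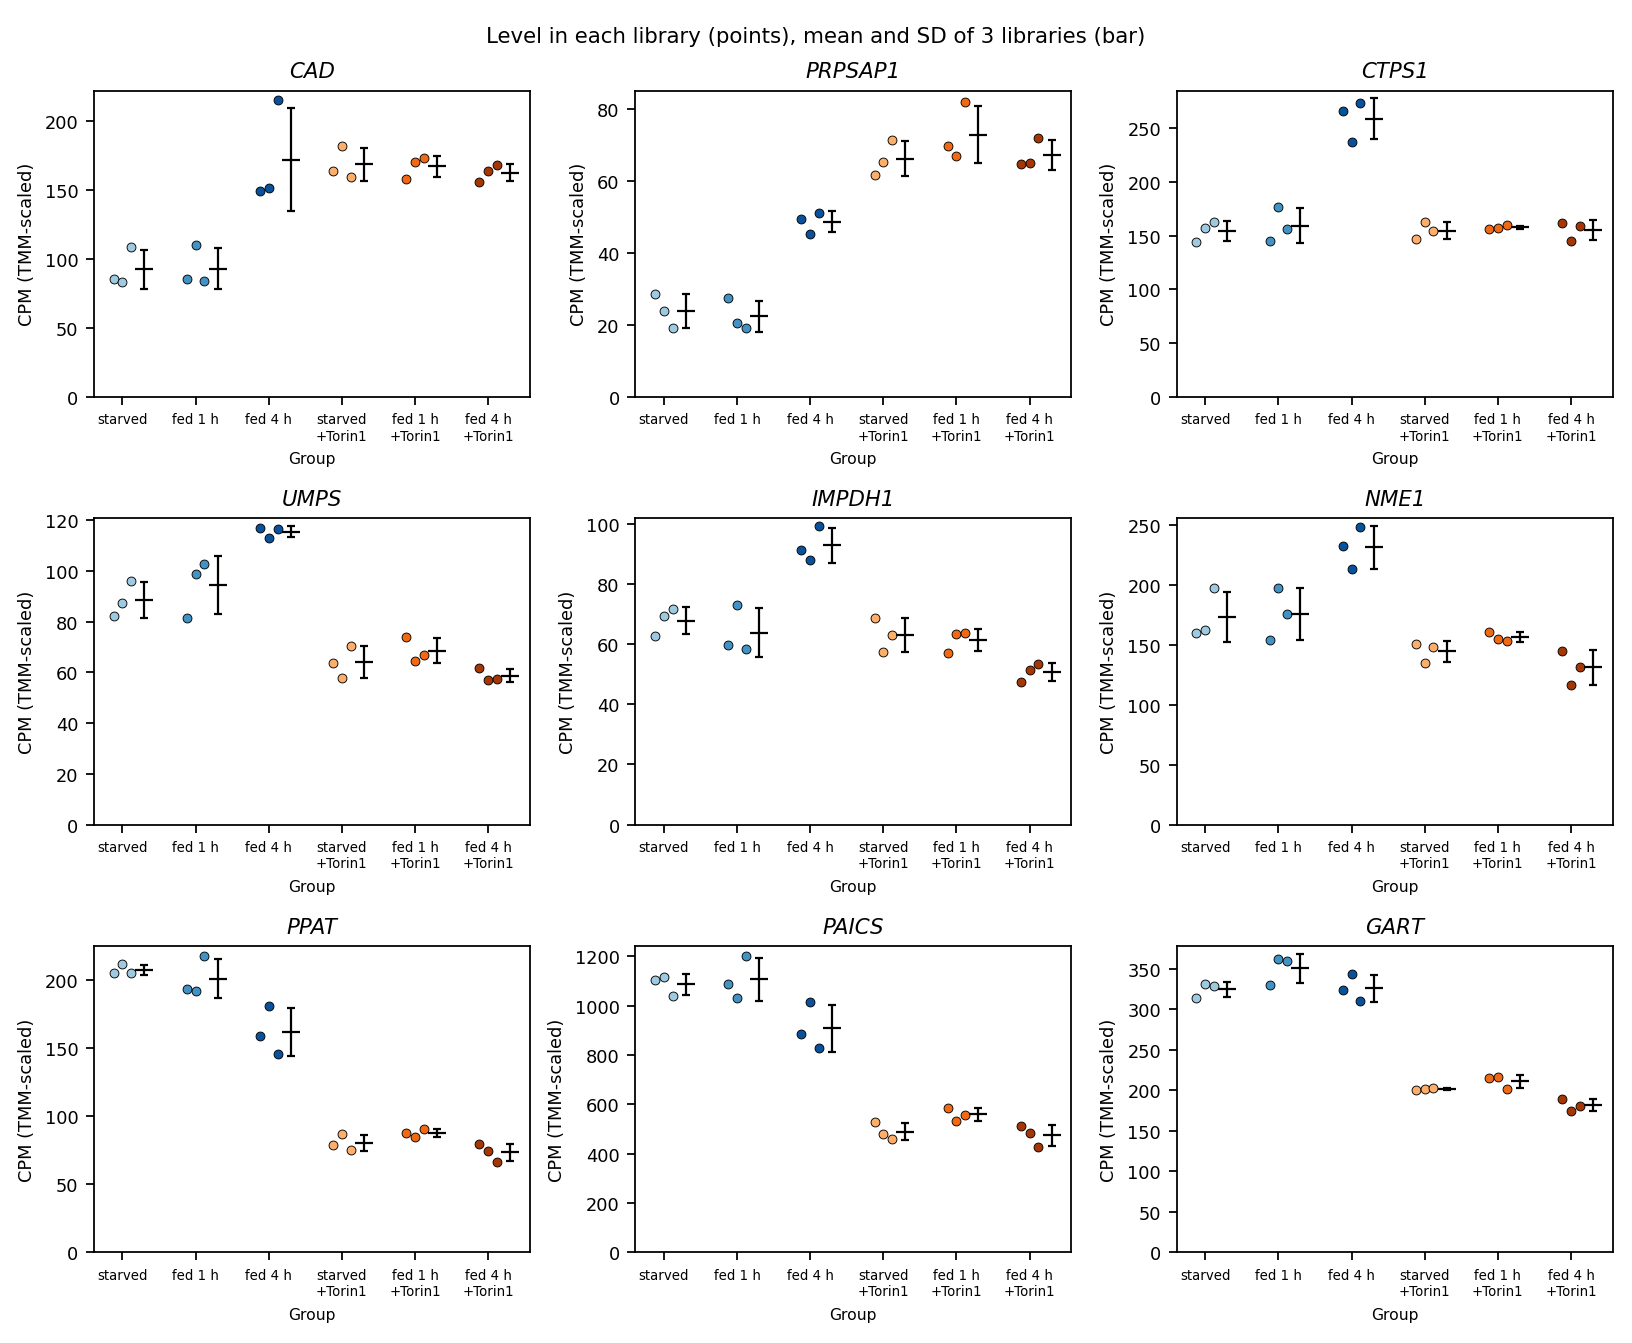
Level (CPM, linear axis from 0) of 9 genes in each of the 18 libraries by group; points are libraries, and the bar beside them is the mean with SD of 3. CAD and PRPSAP1 are high at 4 h and with Torin1, CTPS1, IMPDH1, NME1 and UMPS are highest at 4 h without Torin1, and PPAT, PAICS and GART are low in every Torin1 group.

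Of the 4 genes that turn IMP into AMP and GMP, IMPDH1 rose and ADSS2 fell after 4 h of feeding (23.2% and 19.1% of all genes). IMPDH2 was higher with Torin1 in every state (18.8%), and IMPDH1 was lower with it at 4 h (28.6%). IMPDH1, the rate-limiting enzyme of GMP synthesis together with IMPDH2, stood at 62.7, 69.3 and 71.6 CPM starved, 59.7, 73.1 and 58.4 CPM at 1 h and 91.3, 88.1 and 99.2 CPM at 4 h. With Torin1 it stood at 68.8, 57.5 and 63.1 CPM starved, 57.1, 63.3 and 63.6 CPM at 1 h and 47.5, 51.3 and 53.3 CPM at 4 h. The 4 h libraries were the highest and the 4 h Torin1 libraries the lowest of the 6 groups, with differences of 0.45 with feeding (SE 0.10, adjusted p = 0.000316) and -0.87 with Torin1 at 4 h (SE 0.10, adjusted p = 7.43e-09). IMPDH2 measured 508, 502 and 510.2 CPM starved, 506, 500.2 and 474 CPM at 1 h and 494, 499 and 475 CPM at 4 h. Its Torin1 libraries measured 719, 683 and 723 CPM starved, 741, 735 and 738 CPM at 1 h and 707, 710.1 and 744 CPM at 4 h. All 9 lay above the untreated libraries, and IMPDH2 was 1.40-fold higher with Torin1 in starved cells (log2 fold change 0.48, SE 0.06, adjusted p = 9.24e-08) and 1.47-fold at 4 h (log2 fold change 0.56, SE 0.06, adjusted p = 1.09e-08). ADSS2, the synthase on the AMP side, held 144, 143 and 154 CPM starved, 135, 145 and 144 CPM at 1 h and 123, 122 and 119 CPM at 4 h. With Torin1 it held 104, 95.05 and 93.8 CPM starved, 119, 103 and 113 CPM at 1 h and 100.1, 84.1 and 81.6 CPM at 4 h, lower in each (log2 fold change -0.59, SE 0.08, adjusted p = 3.85e-07 in starved cells). The fall of ADSS2 with feeding was -0.28 (SE 0.08, adjusted p = 0.00771), and the libraries did not overlap. GMPS, the amidating synthase on the GMP side, was called with Torin1 at 1 h (0.23, adjusted p = 0.00757) and in no other comparison with TMM scaling. Under total-count scaling GMPS was also called higher with Torin1 in starved cells (0.23, adjusted p = 0.00619).

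In pyrimidine synthesis CAD, UMPS and CTPS1 rose after 4 h of feeding (23.2% of all genes), and neither DHODH nor CTPS2 was called. CAD (ENSG00000084774), the protein that carries the first 3 enzyme activities of the route, stood at 85.03, 83.2 and 109 CPM starved, 85.4, 109.7 and 83.7 CPM at 1 h and 149, 151 and 215 CPM at 4 h. With Torin1 it stood at 164, 182 and 159 CPM starved, 158, 169.8 and 173 CPM at 1 h and 156, 163 and 168 CPM at 4 h. The 4 h libraries, replicate 3 the highest, lay above all starved and 1 h libraries, and the Torin1 libraries lay within the range of the untreated 4 h ones. The rise with feeding was 1.86-fold (log2 fold change 0.90, SE 0.13, adjusted p = 8.96e-06), and Torin1 raised CAD 1.82-fold in starved cells (log2 fold change 0.87, SE 0.13, adjusted p = 5.56e-06). At 4 h the Torin1 difference was -0.08 (95% interval -0.35 to 0.18, adjusted p = 0.602). The 4 h feeding and starved-cell Torin1 comparisons share the starved libraries. CAD is a member that rose in both, and so the 250 bases before its RefSeq start (GRCh38.p14, chr2:27217119-27217368, plus strand) are shown; capitals mark the motif match, an inverted CCAAT at the far edge.
CAD: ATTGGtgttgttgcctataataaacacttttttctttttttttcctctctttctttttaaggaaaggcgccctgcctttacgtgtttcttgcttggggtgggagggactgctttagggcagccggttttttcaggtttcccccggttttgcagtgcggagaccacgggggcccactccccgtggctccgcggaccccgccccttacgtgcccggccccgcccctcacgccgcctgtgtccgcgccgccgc

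UMPS, which adds PRPP to the pyrimidine ring and decarboxylates it, stood at 82.2, 87.2 and 96.1 CPM starved, 81.3, 98.8 and 103 CPM at 1 h and 117, 113 and 117 CPM at 4 h. With Torin1 it stood at 63.7, 57.8 and 70.4 CPM starved, 74.1, 64.6 and 66.95 CPM at 1 h and 61.7, 57.00 and 57.4 CPM at 4 h. All Torin1 libraries lay below all others, and the differences were 0.38 with feeding (SE 0.09, adjusted p = 0.00132) and -0.97 with Torin1 at 4 h (SE 0.09, adjusted p = 5.17e-10). CTPS1 and CTPS2 convert UTP to CTP. CTPS1 (ENSG00000171793) measured 144, 157 and 162 CPM starved, 145, 177 and 156 CPM at 1 h and 266, 237 and 273 CPM at 4 h. With Torin1 it measured 147, 162 and 154 CPM starved, 156, 157 and 159 CPM at 1 h and 162, 145 and 159 CPM at 4 h. The untreated 4 h libraries alone stood apart: 1.68-fold above starvation (log2 fold change 0.75, SE 0.08, adjusted p = 9.58e-09), with Torin1 differences of -0.74 at 4 h and 0.00 in starved cells (95% interval -0.17 to 0.17). CTPS2 held 16.3, 12.2 and 14.9 CPM starved, 13.9, 10.8 and 13.4 CPM at 1 h and 15.6, 16.1 and 13.3 CPM at 4 h. Its Torin1 libraries held 26.9, 32.1 and 32.4 CPM starved, 32.1, 29.8 and 29.99 CPM at 1 h and 28.1, 28.2 and 28.6 CPM at 4 h, all above the untreated ones. Torin1 raised CTPS2 2.11-fold in starved cells (log2 fold change 1.07, SE 0.13, adjusted p = 2.53e-08) and 1.89-fold at 4 h (log2 fold change 0.92, SE 0.13, adjusted p = 6.81e-07). DHODH, the mitochondrial dehydrogenase of the route, ranged from 14.2 to 20.5 CPM in all 18 libraries, with 95% intervals of -0.14 to 0.47 for 4 h of feeding, -0.05 to 0.55 for Torin1 in starved cells and -0.32 to 0.27 for Torin1 at 4 h.

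**Figure D3:**
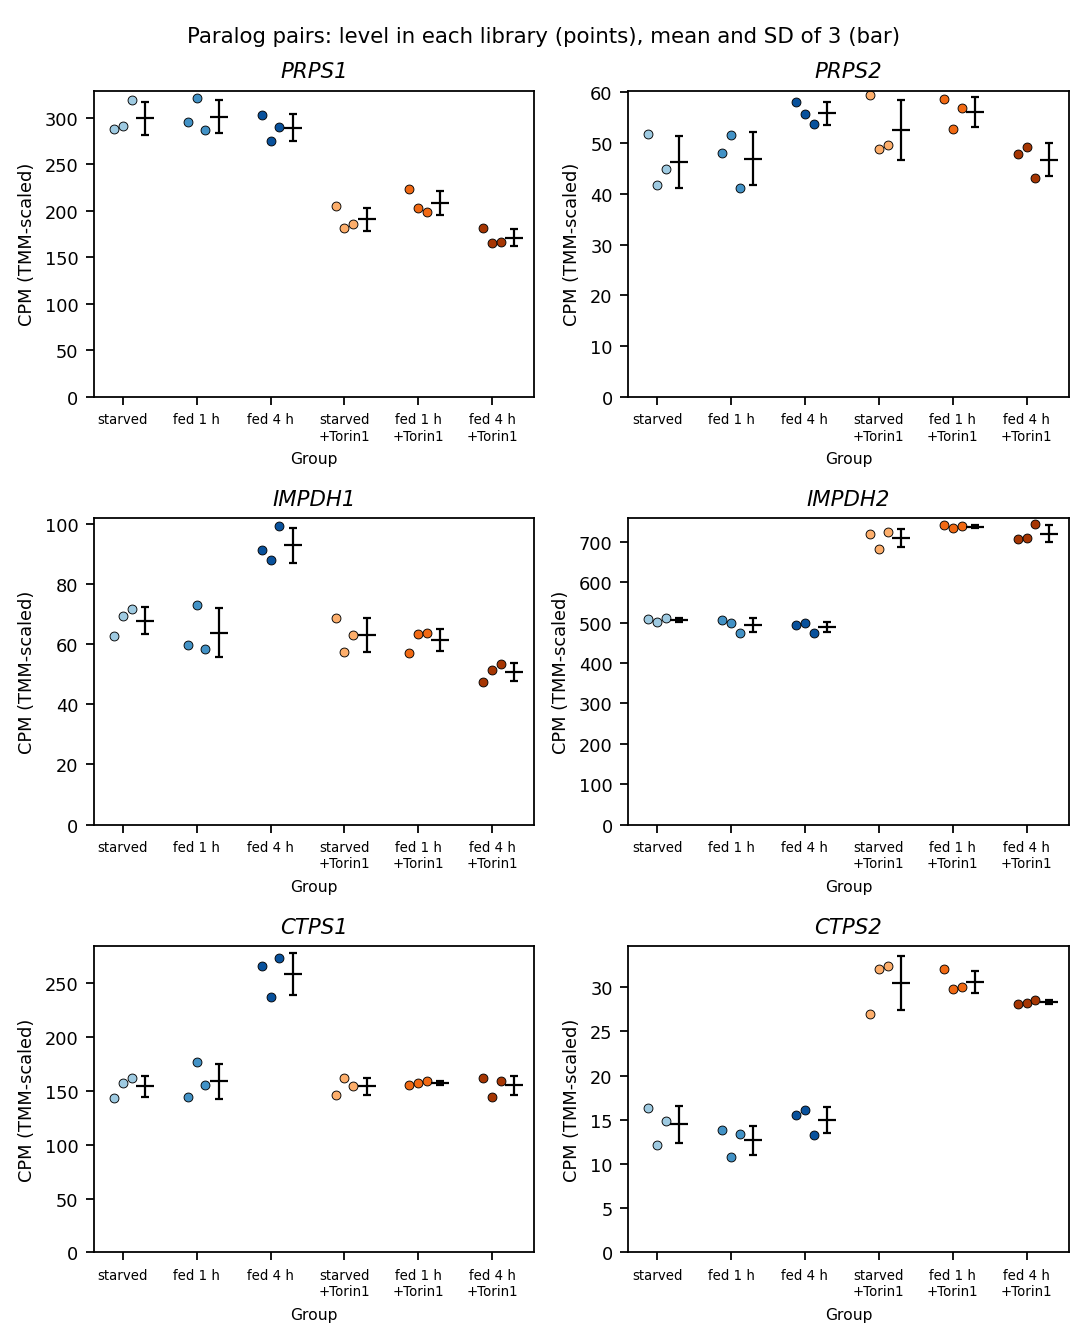
Level (CPM, linear axes from 0, one scale per gene) of the paralog pairs PRPS1 and PRPS2, IMPDH1 and IMPDH2, and CTPS1 and CTPS2 in each library by group; bars are mean and SD of 3. PRPS1 falls with Torin1 while IMPDH2 and CTPS2 rise in all 3 Torin1 groups, and IMPDH1 and CTPS1 peak in the untreated 4 h group.

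The balance within paralog pairs moved with these changes, given here as the log2 ratio of counts within a library and as a description. PRPS1 over PRPS2 was 2.70 (SD 0.197, n = 3) in starved cells and 1.86 (SD 0.067, n = 3) with Torin1. IMPDH1 over IMPDH2 was -2.40 (SD 0.126, n = 3) at 4 h and -3.83 (SD 0.058, n = 3) at 4 h with Torin1. CTPS1 over CTPS2 was 4.11 (SD 0.242, n = 3) at 4 h and 2.45 (SD 0.084, n = 3) with Torin1. PRPSAP1 over PRPSAP2 was -1.30 (SD 0.35, n = 3) in starved cells and -0.24 (SD 0.099, n = 3) at 4 h. With Torin1 its group means were near 0, at -0.015 to 0.036, and single libraries ran from -0.22 to 0.163. The library ranges of the first 3 pairs did not overlap between the groups compared. Each of these pairs is shown in the feeding state with its widest Torin1 contrast. The contrast was narrower for PRPS1 over PRPS2 at 4 h (2.37, and 1.88 with Torin1). In starved cells IMPDH1 over IMPDH2 was -2.90, and -3.49 with Torin1. CTPS1 over CTPS2 was 3.42 there, and 2.35 with Torin1. The ranges did not overlap in these comparisons either. For PRPSAP1 over PRPSAP2 the starved libraries lay below the 4 h and Torin1 ones, while the 4 h range overlapped those of starved and 4 h fed cells with Torin1 and lay below that of cells fed for 1 h with Torin1.

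Among the 5 genes of salvage and phosphorylation, UCK2, NME1 and CMPK1 rose after 4 h of feeding (23.2% of all genes). HPRT1 fell with Torin1 in every state (19.6%). UCK2, a uridine and cytidine kinase, stood at 137, 130.3 and 149.5 CPM starved, 143, 150.00 and 131 CPM at 1 h and 188, 174 and 205 CPM at 4 h. The Torin1 libraries held 143, 141 and 132 CPM starved, 143, 144 and 150.3 CPM at 1 h and 123, 124 and 119 CPM at 4 h. Feeding raised UCK2 1.36-fold (log2 fold change 0.44, SE 0.08, adjusted p = 3.25e-05), the Torin1 difference at 4 h was -0.63 (SE 0.08, adjusted p = 6.28e-08), and in starved cells it was 0.00 (95% interval -0.16 to 0.16). HPRT1, which salvages hypoxanthine and guanine, measured 207, 207 and 203 CPM starved, 226, 193 and 202 CPM at 1 h and 207, 204 and 178 CPM at 4 h. With Torin1 it measured 147, 143 and 149 CPM starved, 158, 145 and 158 CPM at 1 h and 150.1, 134 and 133 CPM at 4 h, all below the untreated libraries. The HPRT1 differences were -0.49, -0.43 and -0.50, with a largest adjusted p of 2.17e-05. APRT, which salvages adenine, was higher with Torin1 in starved cells (0.50, adjusted p = 6.75e-05) and after 1 h (0.48, adjusted p = 0.000106) and was not called at 4 h (0.19, adjusted p = 0.0961). At 4 h it was called without 4 h fed replicate 3 (0.26, adjusted p = 0.0438) and under total-count scaling (0.36, adjusted p = 0.00312).

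NME1, a nucleoside diphosphate kinase, ranged from 160.3 to 198 CPM starved and from 213 to 248 CPM at 4 h (log2 fold change 0.42, SE 0.10, adjusted p = 0.000661). At 4 h with Torin1 it ranged from 116 to 145 CPM (log2 fold change -0.82, SE 0.10, adjusted p = 1.71e-08). CMPK1, the kinase of pyrimidine monophosphates, ranged from 64.3 to 74.7 CPM starved and from 81.5 to 91.8 CPM at 4 h (0.32, adjusted p = 0.00499), and at 4 h with Torin1 from 50.1 to 59.8 CPM (-0.62, adjusted p = 1.09e-06). Both genes were also called lower with Torin1 in starved cells, NME1 by -0.26 and CMPK1 by -0.28 on the log2 scale. Those calls were lost under total-count scaling (adjusted p = 0.242 for NME1 and 0.168 for CMPK1), without starved replicate 3 (0.183 and 0.0645) and without starved Torin1 replicate 2 (0.0915 and 0.0675). NME1 shares 18.6% of its exon bases with the read-through gene NME1-NME2, which held a mean of 256.6 counts against 2000.3 for NME1, so reads may be split between them. RPE overlaps KANSL1L on the opposite strand over 23.8% of its exon bases (148.1 against 662.9 mean counts), and UCK2 overlaps TMCO1 over 3.2%.

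With Torin1 present, none of the 30 genes passed the same test after feeding. After 1 h with Torin1 no member was called in either direction (background 0.274% higher and 0.128% lower), with 5 at an unadjusted p under 0.05, 1 called by DESeq2 (ATIC) and 0 by limma-voom. After 4 h none was called either (background 0.829% and 0.975%), with 4 at an unadjusted p under 0.05, 0 by DESeq2 and by limma-voom, and a smallest adjusted p of 0.0966 for IMPDH1 (-0.32). The 13 members called higher with feeding had a median of 0.453 without Torin1, a value from the same comparison that chose them. With Torin1 the same 13 had a median of -0.054 and a range of -0.317 to 0.138. The difference itself was tested as an interaction, the effect of 4 h of feeding with Torin1 minus that without. It was called negative for 11 members (background 16%) and positive for none (9.74%; 15 members in all had an unadjusted p under 0.05, and DESeq2 called ADSL and PGLS positive), with a member median of -0.20 against -0.0213 over all genes. At 1 h it was called for none (background 0.0122% and 0.0548%), with 2 at an unadjusted p under 0.05 and 0 by DESeq2 and limma-voom. Without the 3 libraries with COL1A2 over 1 CPM 10 members were negative at 4 h. Limma-voom called 12 negative at 4 h, with CMPK1 gained (-0.35, adjusted p = 0.0454). CMPK1 was also gained when genes needed at least 1 CPM in 3 libraries (adjusted p = 0.0492).

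The largest interactions were those of PRPSAP1 (log2 fold change -1.01, SE 0.17, adjusted p = 4.88e-05), CAD (log2 fold change -0.95, SE 0.18, adjusted p = 0.000445) and IMPDH1 (log2 fold change -0.77, SE 0.14, adjusted p = 7.57e-05). CTPS1 (-0.74), UCK2 (-0.63), NME1 (-0.56), TALDO1 (-0.53) and UMPS (-0.51) kept their calls under every alternative run. PFAS (-0.54) was not called without any 1 of 7 libraries (adjusted p 0.0566 to 0.112; starved replicate 1, 4 h fed replicate 3, 4 h fed Torin1 replicates 1 and 2 and the 3 starved Torin1 libraries). PRPS2 (-0.45) was not called without any 1 of 4 (0.054 to 0.0917; starved replicate 2, 4 h fed replicate 1, 4 h fed Torin1 replicate 3 and starved Torin1 replicate 1). ATIC (-0.34) was lost with no filter on low counts (adjusted p = 0.0527). The PFAS call was also lost with DESeq2 size factors (adjusted p = 0.0547) and under total-count scaling (0.0516). The levels behind the 11 differ. CAD and PRPSAP1, and to a lesser extent TALDO1, were already high in starved cells with Torin1. UMPS and NME1 were lower there than without Torin1, and CTPS1, UCK2, IMPDH1, PFAS, ATIC and PRPS2 were not called there. Of these 6, PRPS2 was called higher in starved cells with Torin1 under total-count scaling (0.33, adjusted p = 0.00836) and without starved replicate 1 (0.28, adjusted p = 0.0364). The same held for PRPS2 without the 3 libraries with COL1A2 over 1 CPM (0.28, adjusted p = 0.0367). ATIC was called higher there under total-count scaling (0.15, adjusted p = 0.0416). The interaction and the starved-cell Torin1 comparison share all 6 starved libraries.

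**Figure D4:**
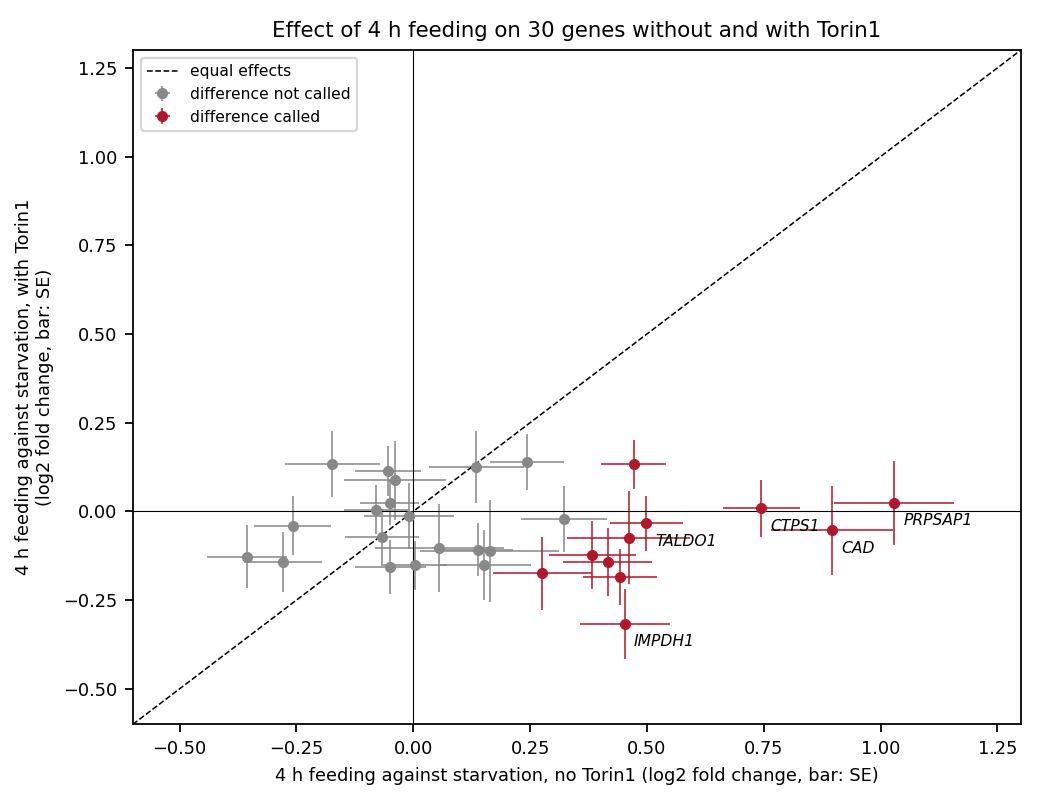
Log2 fold change after 4 h of feeding without Torin1 (horizontal) and with Torin1 (vertical) for the 30 genes; bars are SE, the dashed line marks equal effects, and red points are the 11 genes whose difference was called. The red points lie to the right between 0.28 and 1.03, while with Torin1 they lie between -0.32 and 0.13.

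Estimated isoform counts were examined for the members, with the isoforms named as in GENCODE release 29 and chosen after their values were seen. They are described with no test. GMPS, whose total was not called with Torin1 in starved cells (0.10, adjusted p = 0.266; 0.00619 under total-count scaling), held 29.37% to 30.76% of its counts in the long protein-coding isoform GMPS-203 (8751 bases) in starved libraries and 48.76% to 51.65% with Torin1. In cells fed for 4 h the share of GMPS-203 was 32.1% to 40.53% without Torin1 and 48.21% to 49.07% with it. For PRPSAP1 the longer isoform PRPSAP1-206 (3660 bases) held 24.29% to 28.67% in starved cells, 31.99% to 48.9% at 4 h and 36.36% to 41.6% in starved cells with Torin1. UMPS-201, the 6738-base coding isoform, held 17.02% to 26.31% of UMPS counts at 4 h and 41.87% to 43.72% at 4 h with Torin1. UMPS-206, annotated as a target of nonsense-mediated decay, held 29.53% to 30.36% and 5.88% to 15.97% in those groups. In none of the Torin1 comparisons given here, each within a feeding state, did the ranges overlap. Such shares are model estimates from reads that several isoforms can share, and their error is not given.

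**Figure D5:**
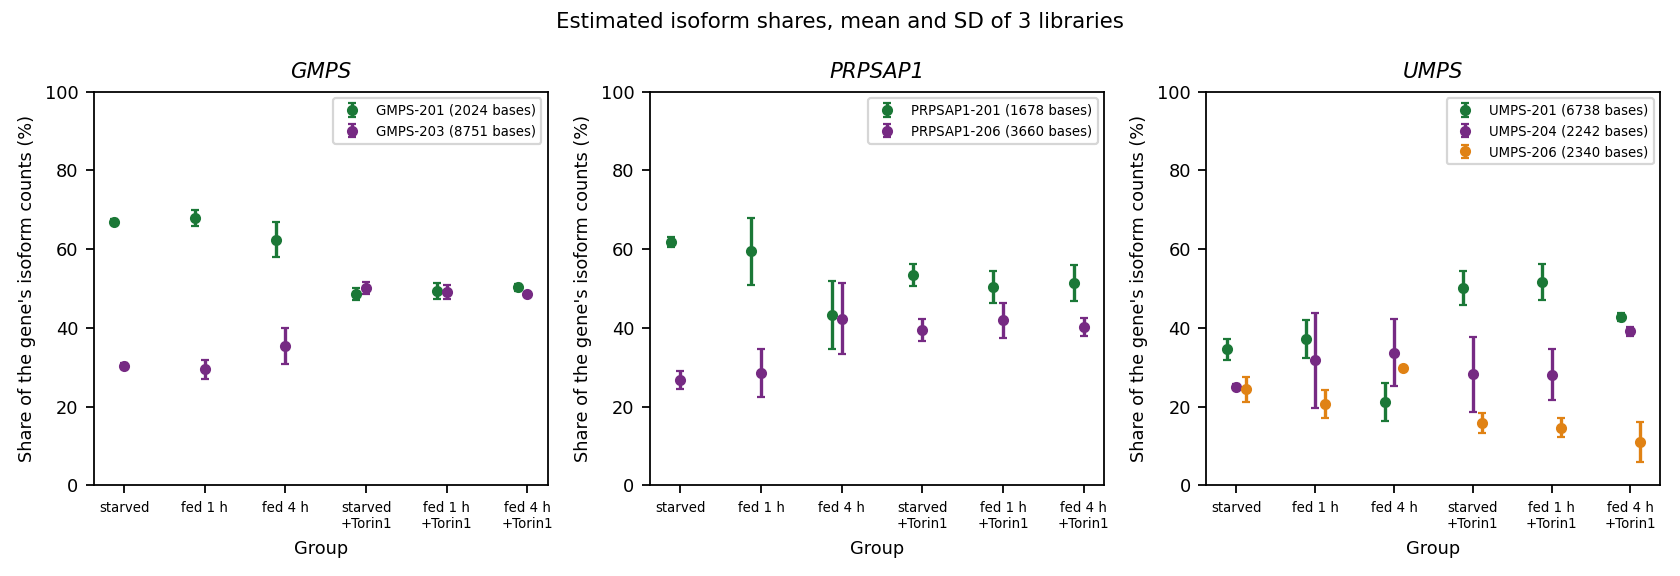
Share of a gene's estimated isoform counts (percent) held by named isoforms of GMPS, PRPSAP1 and UMPS in the 6 groups; points are means and bars SD of 3 libraries. GMPS-203 is near 50% in each Torin1 group and at 30.26% in starved cells, and UMPS-201 is higher in each Torin1 group than in the untreated group of the same feeding state.

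The wider pathway was read from 65 further genes of nucleotide metabolism, of which 55 were tested. After 4 h of feeding 12 were called higher (background 23.2%), 7 lower (19.1%) and 36 not (median 0.03). SLC29A3, a nucleoside transporter of lysosomes, rose from 1.85, 1.25 and 1.10 CPM in starved libraries to 6.92, 7.20 and 6.65 CPM (log2 fold change 2.31, SE 0.27, adjusted p = 2.34e-08). SHPK, the kinase of sedoheptulose, rose from 17.01, 19.8 and 19.8 CPM to 65.7, 64.9 and 66.4 CPM (log2 fold change 1.80, SE 0.11, adjusted p = 2.78e-14). GMPR2, which returns GMP to IMP, fell; its starved libraries held 121, 119.7 and 120.05 CPM and those at 4 h 76.9, 77.3 and 71.01 CPM (log2 fold change -0.68, SE 0.08, adjusted p = 1.98e-08). PNP, which splits purine nucleosides, fell as well, with 252, 250.1 and 249.1 CPM starved and 197, 191 and 155 CPM at 4 h (log2 fold change -0.47, SE 0.09, adjusted p = 9.22e-05). Torin1 in cells fed for 4 h was called higher for 14 of the 55 (background 27.4%) and lower for 18 (28.6%). H6PD, the dehydrogenase that starts a pentose phosphate route inside the endoplasmic reticulum, stood at 13.2, 10.8 and 6.46 CPM without and 63.6, 60.96 and 79.5 CPM with Torin1 (log2 fold change 2.74, SE 0.22, adjusted p = 1.15e-08). RBKS, ribokinase, stood at 0.613, 0.384 and 1.31 CPM and 3.70, 4.19 and 2.33 CPM (log2 fold change 2.13, SE 0.40, adjusted p = 4.21e-05), values close to the limit of 3 counts, which is 0.219 to 0.285 CPM. PNP held 50.4, 42.1 and 38.4 CPM at 4 h with Torin1, below the untreated libraries (log2 fold change -2.05, SE 0.10, adjusted p = 2.14e-16). DCTPP1, a pyrophosphatase of deoxycytidine nucleotides, held 243, 185 and 187 CPM without and 85.6, 76.3 and 88.3 CPM with Torin1 (log2 fold change -1.30, SE 0.12, adjusted p = 1.04e-09). In starved cells Torin1 was called higher for 20 of the 55 (background 33.9%) and lower for 24 (29.6%), and the interaction at 4 h was positive for 3 (9.74%) and negative for 12 (16%).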

How the data were processed

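Expected counts per gene for 18 libraries were deposited by the authors as RSEM estimates, with STAR alignment, per the labels' protocols and the submitters' processing notes; the isoform table holds estimated counts per transcript. The labels name a worm genome, whereas identifiers are human Ensembl ones, and neither the human build, the annotation nor the use of strand is given in the sources used here. Counts, 3.32% of them not whole, were rounded. Genes were kept by filterByExpr (minimum count 10), scaled by TMM and tested with edgeR 4.0.16 (glmQLFit with robust estimation, glmQLFTest, 6 group means, 12 residual degrees of freedom, common biological coefficient of variation 10.6%) in R 4.3.3, with adjusted p under 0.05 over all genes tested. Alternatives were DESeq2 1.42.0, limma-voom (limma 3.58.1), DESeq2 size factors, total counts, other filters, fewer groups, a replicate block and each library left out. Leaving out 3 libraries with COL1A2 over 1 CPM was chosen after seeing the data. The test was checked on simulated data, with changed genes drawn from those at 1 CPM or more in starved cells. Of 1.5-fold changes it recovered 52.2% (4 h feeding), 46.3% (Torin1 at 4 h) and 34.3% (interaction at 4 h). Recovery among the members alone was not measured, and a missing call does not show that a gene was unchanged. Isoforms were matched to GENCODE 29 (98.9% of isoform counts), whose lengths gave TPM. Promoter windows are from RefSeq (GRCh38.p14). All 30 members may be named; values in every library are given for 13 fixed members and for the 3 largest called changes per direction in 4 comparisons, and other pathway genes are the 2 largest called per direction in 2 comparisons. Members and lists were chosen with earlier results of these data known. The 95% intervals of fold changes come from the fit and include the spread between libraries; the limit of 3 counts covers counting error only.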

Additional observations from a re-analysis of the deposited data

Results flagged for a closer look

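The effect of 4 h of feeding differed with and without Torin1 for 11 of the 30 members, by the interaction term of edgeR's quasi-likelihood test (over all genes, 16% were called negative and 9.74% positive). On the log2 scale, the effect with Torin1 minus that without was -1.01 for PRPSAP1, -0.95 for CAD, -0.77 for IMPDH1, -0.74 for CTPS1, -0.63 for UCK2, -0.56 for NME1, -0.54 for PFAS, -0.53 for TALDO1, -0.51 for UMPS, -0.45 for PRPS2 and -0.34 for ATIC. The calls of PFAS, PRPS2 and ATIC were lost under at least 1 alternative, and those of the other 8 held under every alternative run.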

How the results depend on the processing

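No member changed the sign of a call under any alternative run. Of 2700 values of members under 9 alternatives, 2647 kept their call (higher, lower or not called), 34 lost a call and 19 gained one. For values not called in either run the sign was not compared. With 1 library left out at a time the figures were 2160, 2094, 49 and 17. Calls of 12 of 16 members after 4 h of feeding, 18 of 20 for Torin1 in starved cells, 19 of 23 at 1 h, 20 of 24 at 4 h and 8 of 11 interactions at 4 h held under every alternative. Total-count scaling gave 14 members higher with Torin1 in starved cells, in place of 8. DESeq2 gave 1 member higher after 1 h of feeding with Torin1 (ATIC) and 2 with a positive interaction at 4 h (ADSL and PGLS), in place of none, and fitting only the groups compared gave 1 lower after 4 h with Torin1 (IMPDH1). Leaving out single libraries gave 0 to 2 positive interactions at 4 h (2 without 4 h fed replicate 2, PPAT and PAICS; 1 without starved Torin1 replicate 1, PGLS) and 1 to 3 members lower from 1 h to 4 h of feeding (1 without 4 h fed replicate 3). Negative interactions at 4 h ran from 9 to 12 with single libraries left out. Among those gained were CMPK1 without starved replicate 3 (adjusted p = 0.0336) and APRT without 4 h fed replicate 2 (0.0244). The causes were not tested. The labels do not say what a library number shares, and the numbers were not taken to pair the samples: in 45 pairs of same-numbered libraries the correlation of deviations ran from -0.108 to 0.162, with 4 over 0.1, and 11 of 18 libraries correlated best with their own number, a hint from the data and not from the design. With the replicate block 299 of 300 member values kept their call, PRPS2 from 1 h to 4 h being gained (0.25, adjusted p = 0.0384). CTPS2, at 127 counts or more in a library, and DHODH are the members for which depth limits precision most.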
